A study of Mus musculus with 6 samples.

Results

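Meox1 and 5 other transcription factor genes of the paraxial mesoderm (Meox2, Tcf15, Uncx, Pax3 and Pax7) were followed in dissected mouse ear tissue after loss of Tbx1 from mesoderm. The members were all probe sets that the annotation of the Affymetrix mouse genome array assigned to these 6 symbols, which gave 10 probe sets for 6 of the 18193 genes with a probe set of a single symbol. The tissue was the otic vesicle, the epithelial sac that becomes the inner ear, together with the periotic mesenchyme around it, taken at embryonic day 11.5. In the 3 Mest-KO pools, Tbx1 had been removed conditionally with T-Cre, a Cre recombinase under control of the T (brachyury) gene that acts in mesoderm formed at the primitive streak. The 3 control pools were T-Cre conditional Tbx1 heterozygotes, so they too carried T-Cre and were not wild type for Tbx1. Each pool joined both ears of 3 embryos of the same genotype and was measured on 1 array, so embryos within a pool cannot be told apart. The comparison addressed which genes of the ear region differ when mesoderm lacks Tbx1.

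Paraxial mesoderm lies beside the neural tube and, in the trunk, segments into somites. Each somite then divides into the sclerotome, which forms vertebrae and ribs, and the dermomyotome, which forms dermis and skeletal muscle, while the head mesoderm beside the ear does not form somites of this kind. Meox1 and Meox2 encode homeodomain proteins of the somite that are needed for the sclerotome and for limb muscle, Tcf15 (paraxis) encodes a basic helix-loop-helix protein needed for somites to become epithelial, and Uncx encodes a homeodomain protein of the posterior sclerotome. Pax3 and Pax7 encode paired-domain proteins of the dermomyotome and of muscle progenitors, and both are also made in the dorsal neural tube and in neural crest.

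Values are the authors' intensities, each array scaled to a common mean. Differences are Mest-KO minus control on the log2(intensity + 16) scale, which understates changes of dim genes. They are given with standard errors of a limma fit over 14170 genes and p-values adjusted over all of them by the Benjamini-Hochberg method, past the threshold when under 0.05. As a floor, 27 bacterial probe sets whose transcripts had not been added to the samples never exceeded 11.2 on any array, and they are called the unspiked probe sets here. All 14 otic vesicle markers and all 12 periotic mesenchyme markers that had a probe set read above that level on all 6 arrays. Control 1 and control 3 stood apart from the other arrays in neural tube and Y-linked genes. Over all genes tested, pairs of arrays correlated at r from 0.991 to 0.993 within groups and from 0.987 to 0.992 between groups. The mean log2 level of 12 neural tube genes, relative to the mean of the 6 arrays, was -0.76, -0.17 and -0.95 in Mest-KO 1, 2 and 3 and 1.04, -0.27 and 1.1 in control 1, 2 and 3. The mean of 3 Y-linked genes was 0.26, 0.23 and 0.01 in Mest-KO 1, 2 and 3 and -0.49, 0.43 and -0.43 in control 1, 2 and 3, so control 1 and control 3 were high in neural tube genes and low in Y-linked genes. Because whole tissue was measured, fewer cells of a type and less RNA per cell cannot be told apart.

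Of the 6 members, Meox1 rose in Mest-KO and the other 5 did not pass the threshold. Over all 14170 genes tested, 0.148% passed, 12 of them higher (0.0847%) and 9 lower (0.0635%) in Mest-KO, and this split was 22 higher and 56 lower when arrays were centred on their medians. Of the members, 3 had positive and 3 had negative differences, with a median of -0.10, while the median of all genes tested was 0.01. The groups did not overlap for Meox1 and Uncx, where 14.5% of all genes tested had groups that did not overlap, 9.32% with higher and 5.22% with lower values in Mest-KO. All 6 members passed the filter on low values, Uncx only through its control arrays, so that Uncx had to differ and nothing is read from its place in these counts.

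**Figure D1:**
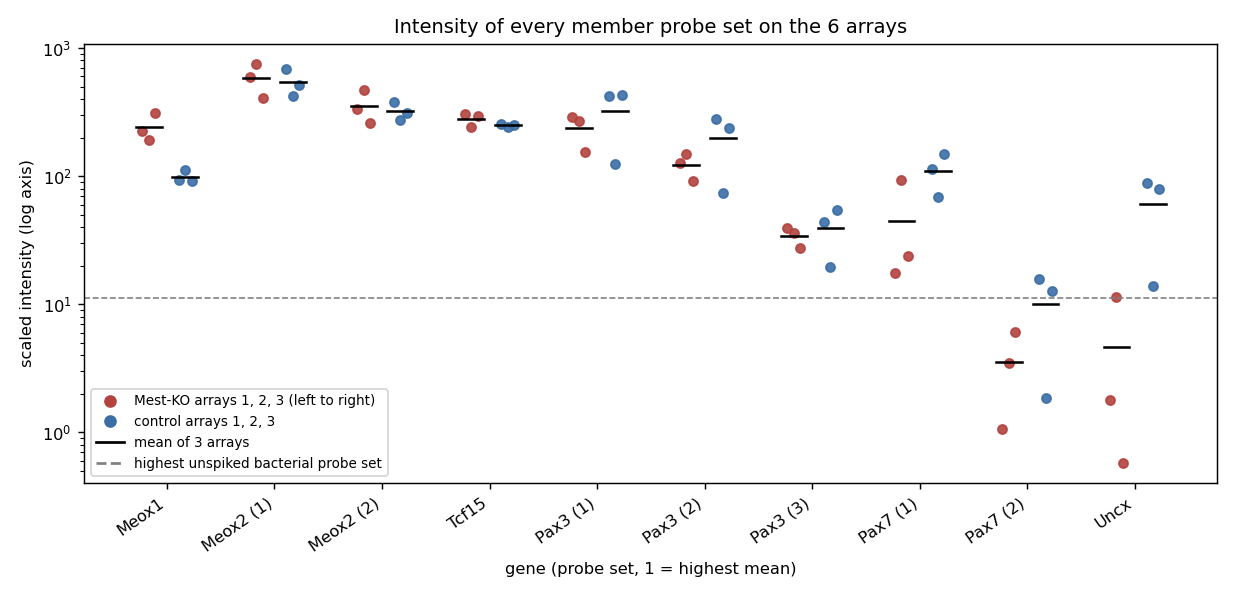
Scaled intensity on a log axis of each of the 10 member probe sets, with Mest-KO arrays to the left of control arrays, black bars for the mean of 3 arrays and a dashed line at the highest unspiked bacterial probe set. The Meox1 points of Mest-KO lie between 192 and 311, above all control points, and of the Mest-KO points of Uncx 1 lies at the dashed line and the others well below it.

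Meox1 was the member with a clear separation of the groups. Its probe set read 225, 192 and 311 in Mest-KO 1, 2 and 3, against 93.8, 112 and 91.1 in control 1, 2 and 3. All Mest-KO arrays were higher than all control arrays, and the lowest Mest-KO array was well above the highest control array. The mean was 243 ± 61.4 in Mest-KO and 98.8 ± 11.1 in control (SD, n = 3 arrays each), a ratio of 2.45. On the log2 scale Meox1 was higher by 1.15 ± 0.18, the 95% interval running over 0.76 to 1.54 (limma, adjusted p = 0.0433), and it ranked 17th by p among the 14170 genes. An exact two-sided permutation test of 3 against 3 arrays gave p = 0.1, the smallest it can give. Within each group, Meox1 ran opposite to the neural tube genes. Mest-KO 3 was highest for Meox1 and lowest for the neural tube list among the Mest-KO arrays, Mest-KO 2 was the reverse, and control 2 was highest for Meox1 and lowest for the neural tube list among the controls. With the mean of the 18 neural tube genes that had a probe set as a covariate, the Meox1 difference was 0.80 ± 0.24 (limma, adjusted p = 0.677). The neural tube list itself differed between the genotypes (median -1.14 for the 12 tested). Fits with this covariate, here and for the other members, therefore cannot separate genotype from the list. Without control 1 and control 3 the Meox1 difference was 0.99. The fits without both of these arrays leave a single control, control 2, whose spread has to be assumed from the Mest-KO arrays, so they are given here and for the other members as values with no test.

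The Meox1 call lay close to the threshold. It was lost without Mest-KO 1 (1.19 ± 0.21, adjusted p = 0.167), Mest-KO 2 (1.29 ± 0.18, adjusted p = 0.0516), Mest-KO 3 (0.97 ± 0.16, adjusted p = 0.0685), control 1 (1.12 ± 0.21, adjusted p = 0.126) and control 3 (1.1 ± 0.21, adjusted p = 0.200), and was kept without control 2. Over 19 alternatives the difference was positive in all 19, from 0.80 to 1.29, and passed in 6, with limma adjusted p from 0.0102 to 0.677. The 19 include the fit without control 1 and control 3, a value with no test. Fits with arrays left out had to be positive, since all Mest-KO arrays were above all controls. The other filters, the mean of all probe sets (Meox1 has 1), eBayes without trend and the replicate block could only return the same difference.

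**Figure D2:**
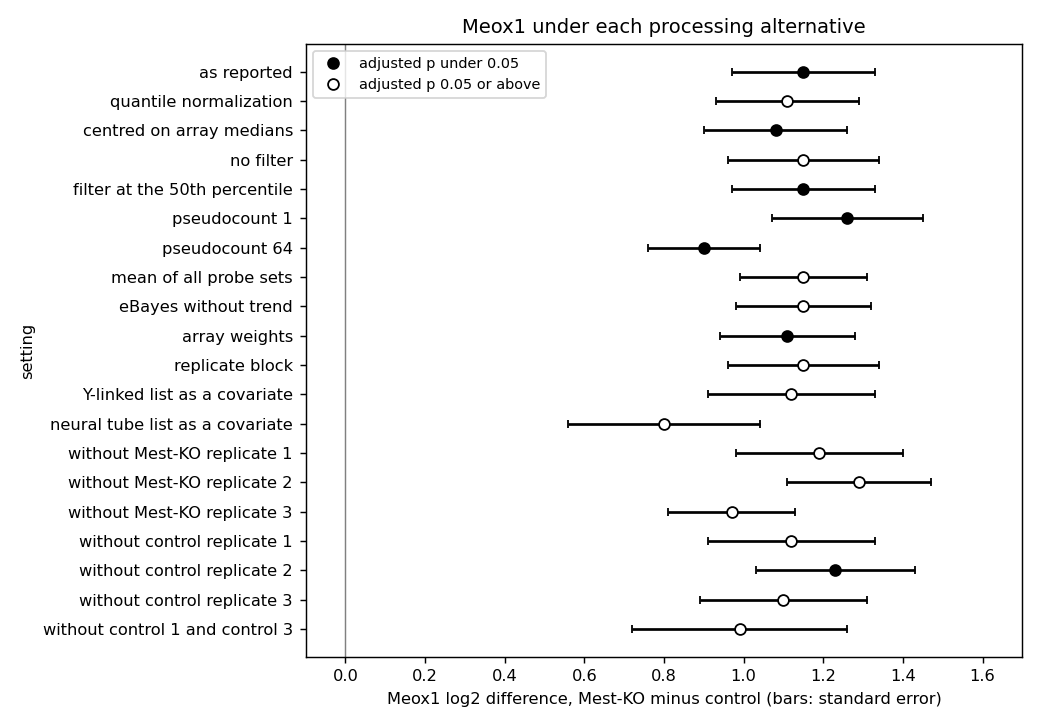
Meox1 log2 difference, Mest-KO minus control, under each setting of the processing, with bars for the standard error and filled points where the adjusted p was under 0.05. All 20 points lie between 0.80 and 1.29, and 7 of them, counting the value as reported, are filled.

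Meox2, the close relative of Meox1 that acts beside it in the sclerotome, did not differ detectably. Its brighter probe set read 596, 751 and 411 in Mest-KO 1, 2 and 3, against 692, 421 and 513 in control 1, 2 and 3. The other read 335, 467 and 260 in Mest-KO 1, 2 and 3, against 380, 274 and 309 in control 1, 2 and 3. On both probe sets the groups overlapped, with Mest-KO 2 highest and Mest-KO 3 lowest of all 6 arrays. The log2 difference was 0.10 ± 0.22 for the brighter probe set (95% interval -0.38 to 0.58, limma adjusted p = 0.933) and, in a fit over all 45037 probe sets other than controls, 0.11 ± 0.21 for the other. The interval holds changes in either direction and does not reach the 1.15 of Meox1. Without Mest-KO 2 the difference was -0.10 and without control 2 it was -0.06, so its sign was set by single arrays. With the neural tube mean as a covariate it was 0.65 ± 0.25 (adjusted p = 0.782).

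Tcf15 was the steadiest member. It read 304, 240 and 294 in Mest-KO 1, 2 and 3, against 257, 244 and 250 in control 1, 2 and 3. Mest-KO 1 and Mest-KO 3 were above all controls and Mest-KO 2 was below them. Tcf15 differed by 0.15 ± 0.13, interval -0.14 to 0.43 (limma, adjusted p = 0.797), and over the alternatives it stayed between 0.07 and 0.24. A change of Tcf15 as large as the 1.15 of Meox1 lay outside this interval.

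Uncx was bright in control 1 and control 3 and near or below background elsewhere. Its probe set read 1.80, 11.5 and 0.577 in Mest-KO 1, 2 and 3, against 88.0, 13.9 and 80.0 in control 1, 2 and 3. Only Mest-KO 2 exceeded the highest unspiked bacterial probe set among the Mest-KO arrays, and only by a little. Control 2 read close to Mest-KO 2, so the groups did not overlap but nearly met. The mean was 4.62 ± 5.98 in Mest-KO and 60.6 ± 40.6 in control (SD, n = 3 arrays each). Uncx differed by -1.73 ± 0.41 on the log2 scale, interval -2.64 to -0.82, and did not pass (limma, adjusted p = 0.189; exact permutation p = 0.1, the smallest possible). Its size depended on the background, from -3.64 with a pseudocount of 1 to -0.80 with a pseudocount of 64. The adjusted p of Uncx was under the threshold when control 2 was left out (-2.31 ± 0.24, limma adjusted p = 0.00277) and when arrays were centred on their medians (-1.80 ± 0.35, adjusted p = 0.0274). None of these Uncx p-values is read as a result, since only its control arrays carried it past the filter on low values. The Uncx levels followed the neural tube genes, with control 1 and control 3 highest for both. With the neural tube mean as a covariate the Uncx difference was -0.33 ± 0.28 (adjusted p = 0.889), and with control 2 as the single control it was -0.57.

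Pax3 is marked by 3 probe sets that gave the same picture. The brightest read 288, 268 and 153 in Mest-KO 1, 2 and 3, against 420, 125 and 426 in control 1, 2 and 3. The next read 127, 149 and 91.7 in Mest-KO 1, 2 and 3, against 281, 73.5 and 237 in control 1, 2 and 3. The dimmest read 39.3, 36.1 and 27.6 in Mest-KO 1, 2 and 3, against 43.8, 19.4 and 54.3 in control 1, 2 and 3. On each of the 3 probe sets control 1 and control 3 were the highest arrays and control 2 the lowest, so the control group spanned the whole Mest-KO group. The brightest differed by -0.30 ± 0.39, interval -1.16 to 0.56 (limma, adjusted p = 0.870), and those of the others, fitted over all probe sets, were -0.47 ± 0.41 and -0.08 ± 0.26. The direction for Pax3 depended on which controls were used. Without control 2 it was -0.85 ± 0.23 (adjusted p = 0.181), with the neural tube mean as a covariate it was 0.98 ± 0.30 (adjusted p = 0.695), and with control 2 as the single control it was 0.80. Left out singly, control 1 (-0.03), control 3 (-0.02) and Mest-KO 3 (-0.03) each brought the difference close to 0.

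Pax7, the partner of Pax3 in muscle progenitors, had lower means in Mest-KO on both probe sets without passing. Its brighter probe set read 17.6, 92.8 and 23.9 in Mest-KO 1, 2 and 3, against 113, 69.1 and 148 in control 1, 2 and 3. Mest-KO 2 read above control 2, so the groups overlapped, while Mest-KO 1 and Mest-KO 3 were below all controls. The mean was 44.7 ± 41.7 in Mest-KO and 110 ± 39.5 in control (SD, n = 3 arrays each). On the log2 scale Pax7 differed by -1.21 ± 0.39, interval -2.07 to -0.35 (limma, adjusted p = 0.336; exact permutation p = 0.2). The second probe set read 1.07, 3.50 and 6.03 in Mest-KO 1, 2 and 3, against 15.8, 1.85 and 12.6 in control 1, 2 and 3, so that only control 1 and control 3 were above the unspiked probe sets, and no fold is given for it. Over the alternatives the difference of the brighter probe set stayed negative, from -1.73 without Mest-KO 2 (adjusted p = 0.0681) to -0.11 ± 0.41 with the neural tube mean as a covariate (adjusted p = 0.981). With control 2 as the single control it was -0.69.

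**Figure D3:**
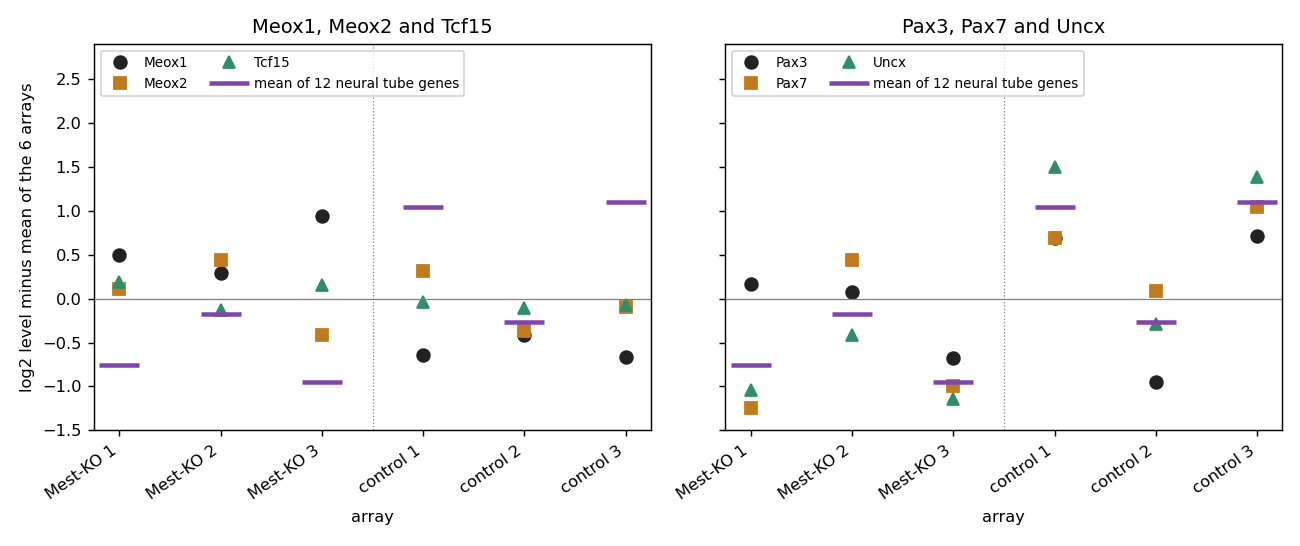
Log2 level of each member minus its mean over the 6 arrays, with Mest-KO arrays left of the dotted line and control arrays right of it; purple bars are the mean of 12 neural tube genes on the same scale. Pax3, Pax7 and Uncx are highest in control 1 and control 3, as the neural tube genes are, while Meox1 is lowest in those arrays.

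The sequences upstream of Uncx and Pax7 are shown because both genes were highest in control 1 and control 3. They are the 250 bases before the start site listed for the gene in RefSeq for GRCm38.p6, whose table held 3 of the 6 members (Meox2 as well), printed 5′ to 3′ on the gene's strand. For both genes the start listed there lies inside the gene's whole span in the same annotation, entirely so for the Pax7 window, so these windows are upstream of the listed start and not of every transcript. Capitals mark TAATTA, the core that many homeodomain proteins bind. Uncx lies at chr5:139543648-139543897 on the plus strand and Pax7 at chr4:139832969-139833218 on the minus strand.
Uncx: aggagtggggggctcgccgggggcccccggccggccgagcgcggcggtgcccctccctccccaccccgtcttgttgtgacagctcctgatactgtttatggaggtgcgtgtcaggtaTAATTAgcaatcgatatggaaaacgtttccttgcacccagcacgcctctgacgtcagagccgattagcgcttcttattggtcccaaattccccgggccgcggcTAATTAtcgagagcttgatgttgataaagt
Pax7: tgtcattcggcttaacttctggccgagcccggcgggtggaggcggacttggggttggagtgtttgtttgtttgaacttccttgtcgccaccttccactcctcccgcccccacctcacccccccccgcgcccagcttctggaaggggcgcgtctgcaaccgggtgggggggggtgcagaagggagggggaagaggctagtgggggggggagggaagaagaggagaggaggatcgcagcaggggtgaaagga
TAATTA, searched on both strands (it reads the same on each), occurred 2 times in the Uncx window, beginning 133 and 30 bases before the listed start, the second within the gene's span, and 0 times in the Pax7 and Meox2 windows. Of the 32851 upstream windows of the same length in the table, 4.84% held it. A match is a run of letters and does not show that a protein binds there.

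**Figure D4:**
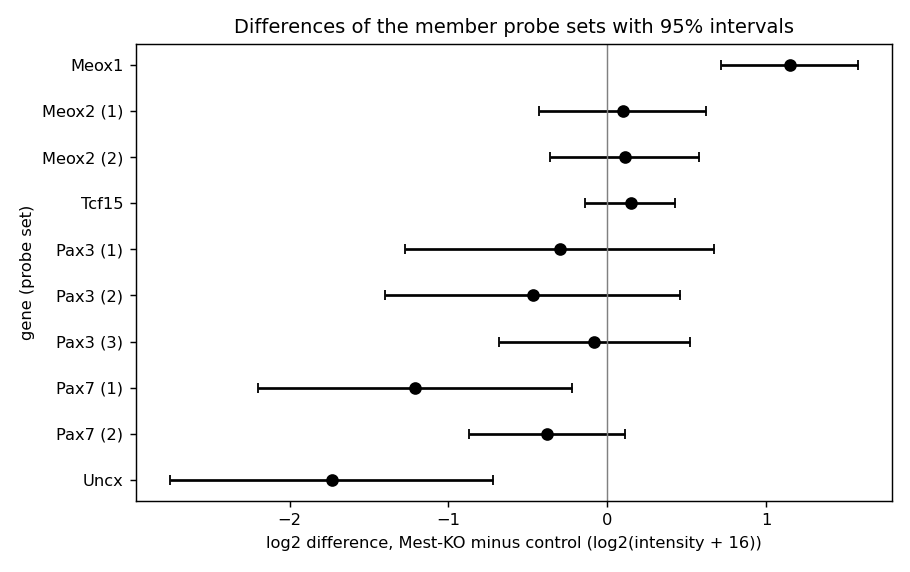
Log2 difference, Mest-KO minus control, of each of the 10 member probe sets with its 95% interval, from the limma fit over all 45037 probe sets other than controls. The intervals of Meox1, the brighter Pax7 probe set and Uncx do not reach 0, the first on the positive side and the others on the negative side.

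In this fit over all probe sets, where 0.0133% passed, none of the 10 member probe sets did, with Meox1 at an adjusted p of 0.318, Uncx at 0.437 and the brighter Pax7 probe set at 0.544 (limma). Whether Meox1 changed by more than the other members was examined within arrays, as the difference between its log2 difference and theirs. With 3 arrays of each genotype the exact permutation test cannot give a p under 0.1, so no such difference could pass. Against Tcf15 it was 1.00 ± 0.17 and against Pax7 2.36 ± 0.76, with groups that did not overlap and an exact permutation p of 0.1 (0.167 after Benjamini-Hochberg adjustment over the 5 comparisons). Against Meox2 it was 1.05 ± 0.51 (exact permutation p = 0.2, adjusted 0.25) and against Pax3 1.45 ± 0.77 (p = 0.3, adjusted 0.3), and in both the groups overlapped. Against Uncx no value is given, since its Mest-KO arrays were near or below background.

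Genes whose levels ran most like Meox1 over the 6 arrays were picked by Pearson correlation among 4491 named genes with a log2 range of at least 0.5, so the r values describe the choice and carry no test. They were Grasp, encoding a scaffold protein for receptor trafficking (r = 0.989), Pex5l (r = 0.986), Gsc, encoding the homeodomain protein goosecoid of the branchial arches (r = 0.985), Snrnp48, encoding a splicing factor (r = 0.981), and Klb, encoding an FGF co-receptor (r = 0.975). With 6 arrays, 1.38% of the genes reached an r of 0.9 with Meox1. Gsc read 93.0, 67.4 and 100.3 in Mest-KO 1, 2 and 3, against 36.0, 39.0 and 31.7 in control 1, 2 and 3, a difference of 0.98 ± 0.17, and Pex5l had a difference of 1.20 ± 0.17. As these genes were picked for running like a gene that separated the groups, their differences are a description too. For Pax3, the most similar genes were Minar2 (r = 0.991), Fam13c (r = 0.991), Spag8 (r = 0.989), Mfsd4a (r = 0.984) and Ppp1r32 (r = 0.983). Each of them too was highest in control 1 and control 3, which follows from their choice by likeness to Pax3. Spag8, Mfsd4a and Ppp1r32 were dim, and Ppp1r32 read 9.81 in control 2, below the highest unspiked probe set.

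The genes around the members in the somite programme showed no shift that passed. Of 11 tested genes of presomitic and paraxial mesoderm, 0 passed, 4 had positive and 7 negative differences, and the median was -0.01. At an unadjusted p under 0.05 there was 1, a share near the 8.97% of all genes tested: Mesp1, an early mesoderm factor, with 16.5 ± 3.42 in Mest-KO and 32.4 ± 3.75 in control (-0.58 ± 0.17; limma, adjusted p = 0.288). Msgn1 and Ripply2, which mark presomitic mesoderm and forming somites, were at or below the unspiked probe sets on all 6 arrays, as was Nkx3-2, a sclerotome gene reported as a target of Meox proteins. Hes7, of the segmentation clock, differed by 0.36 ± 0.21, Cited1 by -0.32 ± 0.16 and Foxc2, a forkhead factor of paraxial mesoderm, by -0.15 ± 0.09, and the other 7 lay between -0.34 and 0.04.

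Of 14 tested sclerotome genes, 0 passed, with 4 positive and 10 negative differences and a median of -0.13. At an unadjusted limma p under 0.05 there were 4, of which 2 were higher and 2 lower, a larger share than the 8.97% of all genes tested. Pax1, a sclerotome factor that is also made in pharyngeal pouches, read 76.1, 82.3 and 150 in Mest-KO 1, 2 and 3, against 491, 193 and 287 in control 1, 2 and 3 (-1.47 ± 0.30; limma, adjusted p = 0.130). Its groups did not overlap, and control 2, the lowest control, was above all Mest-KO arrays. The matrix gene Mfap4 differed by 0.23 ± 0.09, the BMP ligand gene Bmp5 by 0.34 ± 0.12 and the fibrillin gene Fbn2 by -0.25 ± 0.10. Of 17 dermomyotome and early muscle genes, 0 passed, with 9 positive and 8 negative differences and a median of 0.04. At an unadjusted limma p under 0.05 there were 2, of which 1 was higher and 1 lower. Lbx1, made in migrating muscle progenitors and in hindbrain interneurons, read 19.0, 91.4 and 21.1 in Mest-KO 1, 2 and 3, against 374, 60.6 and 409 in control 1, 2 and 3 (-2.17 ± 0.60; limma, adjusted p = 0.250). As for Pax3, Pax7 and Uncx, its high values were those of control 1 and control 3. The transcriptional cofactor gene Eya2 differed by 0.55 ± 0.17, Dmrt2, a dermomyotome factor, by -0.51 ± 0.23 and Itm2a by -0.27 ± 0.13.

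Of 12 tested genes reported as targets of Meox, Pax3 or Pax7 proteins, 0 passed, 6 had positive and 6 negative differences, and the median was 0.01, as for all genes. The 2 largest differences were those of Neurog2, a neural progenitor factor (-1.89 ± 0.43; limma, adjusted p = 0.167), and of Lbx1, which are both in the neural tube list too. The other 4 tested Pax genes, Pax1, Pax6, Pax8 and Pax9, all had negative differences, from -1.47 ± 0.30 for Pax1 to -0.15 ± 0.14 for Pax9, with a median of -0.70, and 0 passed. The median was -1.09 without control 2, -0.43 without control 3, -0.20 without control 1 and control 3, and -0.23 with the mean of all probe sets of a gene.

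**Figure D5:**
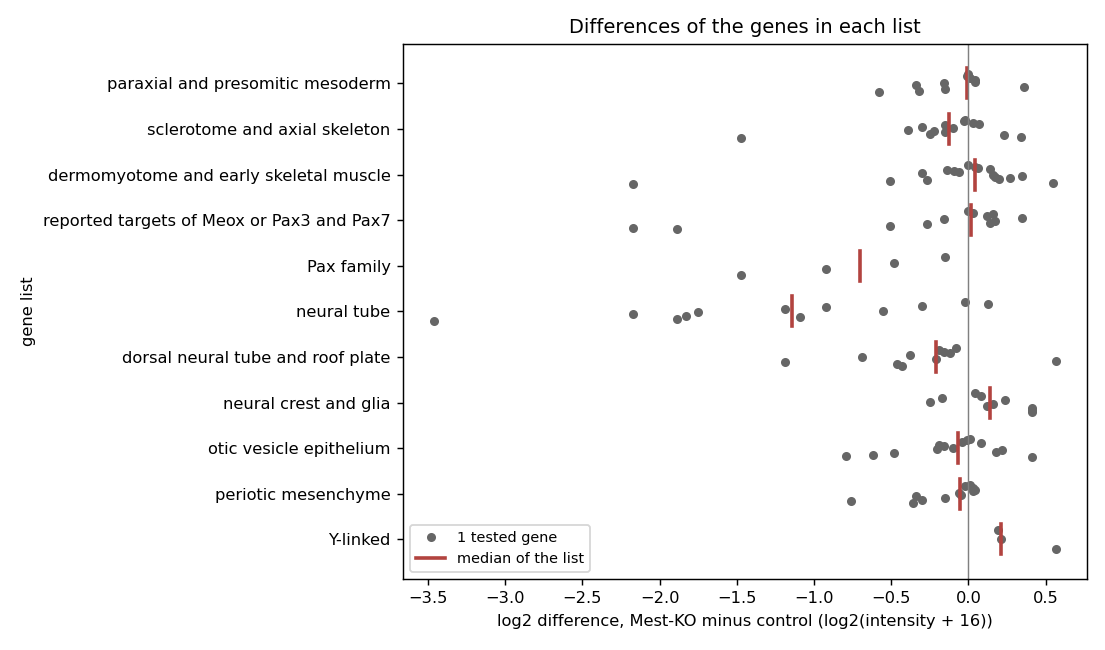
Log2 difference, Mest-KO minus control, of each tested gene in 11 lists (grey points), with the median of each list (red line). The medians of the paraxial mesoderm, dermomyotome and target lists lie within 0.04 of 0, and that of the neural tube list lies at -1.14.

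Pax3, Pax7 and Uncx were highest in control 1 and control 3, as the neural tube genes were. On the other arrays Pax3 did not follow them. Relative to its mean over the arrays, Pax3 was lowest in control 2 (-0.95), below Mest-KO 1 (0.17) and Mest-KO 3 (-0.68). The neural tube mean was higher in control 2 (-0.27) than in Mest-KO 1 (-0.76) and Mest-KO 3 (-0.95). The values of the neural tube list are as follows. Of 12 tested, 1 passed, Skor1, a corepressor of interneurons, which fell (-3.46 ± 0.49; limma, adjusted p = 0.0256), and 11 of 12 had negative differences with a median of -1.14. That median was -0.30 without control 1 and control 3 and -0.53 with no filter. Their summed intensity ran from 1296 to 2062 in Mest-KO and from 1734 to 3968 in control. Of 18 with a probe set, 11 were above the unspiked probe sets on all arrays, and Olig2 and Dbx2 were at or below them on all. Nkx6-1 was among those above them on all arrays, with means of 85.7 ± 41.8 in Mest-KO and 82.3 ± 5.67 in control. For the dorsal neural tube and roof plate the sums ran from 7476 to 9149 in Mest-KO and from 9379 to 10835 in control. Zic1 gave much of these sums (mean 4906 in Mest-KO and 5658 in control). On the mean log2 scale the groups overlapped, with control 2 (-0.21) below Mest-KO 1 (-0.05) and Mest-KO 2 (-0.12). Of the 11 tested genes, 0 passed and 10 had negative differences. The remaining gene, Rspo1, was higher in Mest-KO (0.57 ± 0.20). It read 179, 157 and 123 in Mest-KO 1, 2 and 3, against 116, 69.6 and 110 in control 1, 2 and 3. The median difference of the 11 genes was -0.21, and it was -0.45 without control 2 and -0.03 without control 1 and control 3. The homeobox genes Msx2 (-0.43 ± 0.10) and Msx1 (-0.46 ± 0.11) had the smallest p there, with control 2 (801 and 1070) above all Mest-KO arrays for both, whereas Olig3 (-1.19 ± 0.41) read 170 and 168 in control 1 and control 3 and 36.1 in control 2, within the Mest-KO range. The part of neural tube tissue in the levels of Pax3, Pax7 and Uncx was not tested. The covariate used above cannot test it, since the list itself differed between the genotypes (median -1.14). Nor can the fit without control 1 and control 3, which keeps a single control.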

How the data were processed

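Otic vesicle and periotic mesenchyme of 3 Mest-KO and 3 control pools were measured on 1-colour arrays, 300 ng of total RNA each, per the labels' protocols. The deposited values were linear intensities; the submitters' processing notes name Affymetrix Expression Console 1.1, and its algorithm was not given in the sources used here. Arrays had the same mean intensity, 500.002 once 2% of probe sets at each end were trimmed, which hides any shift common to most genes. Slide and scan dates were not used here, and precision is limited by the number of arrays.

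After removal of 64 control probe sets, 34945 had 1 gene symbol, 932 several and 9160 none in the platform's annotation. The deposited intensities were taken to log2 after adding 16. The probe set of highest mean log2 value stood for each gene, which was kept above the 30th percentile of probe sets (14170 of 18193 genes). Genotype was fitted with limma 3.58.1 (R 4.3.3; eBayes with trend, two-sided), and the steps were tested on simulated data. A second fit took all 45037 probe sets. Single values had exact permutation tests of 3 against 3. The labels call arrays of a group biological replicates. Named by a fixed rule were all members and the 5 genes most like each of Meox1 and Pax3. From each of 11 lists came the genes past the threshold or the 4 with the smallest p. The Y-linked list was an exception and was given as a mean only. Some list genes were named beyond this rule, among them Zic1, Tfap2a, Tfap2b, Nkx6-1 and genes at or below the unspiked probe sets. Members and lists were chosen with earlier results of these data known, and list members are described by counts and medians with no test. Alternatives were other scaling, filters, pseudocounts, probe set summary, variance models, a replicate block, Y-linked (3 genes) or neural tube (18 genes) covariates and left-out arrays.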

Additional observations from a re-analysis of the deposited data

How the results depend on the processing

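The count of 21 genes that passed was 78 with arrays centred on their medians, 2 with no filter, 6 with the mean of all probe sets of a gene, 1 with eBayes without trend and 4 with a neural tube covariate. No count is given without control 1 and control 3, a fit in which the lone control is assumed to vary like the Mest-KO arrays. Leaving out single arrays gave 3 genes without Mest-KO 1, 9 without Mest-KO 2, 21 without Mest-KO 3, 2 without control 1, 82 without control 2 and 6 without control 3. Deviations of same-numbered arrays correlated at -0.028, -0.109 and -0.154, and those of differently numbered arrays at -0.149 to 0.243. Pairing by replicate number was not seen in these values, and any other pairing of the arrays was not tested. With the replicate block 9 genes passed, and Meox1 had a limma adjusted p of 0.0775. Its difference of 1.15 could not change, as each replicate number occurs once in each group. The other 5 members stayed short of the threshold with the block.

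Meox1 did not pass with quantile normalization (1.11), no filter (1.15), the mean of all probe sets (1.15), eBayes without trend (1.15), or the Y-linked (1.12) or neural tube (0.80) covariate. Without control 1 and control 3 the Meox1 difference was 0.99, a value with no test. Its range over single arrays left out was 0.97 to 1.29. Over single arrays left out, Meox2 ranged from -0.10 to 0.32, Pax3 from -0.85 to -0.02, Tcf15 from 0.08 to 0.24, Pax7 from -1.73 to -0.88 and Uncx from -2.31 to -1.42. The Pax3 difference turned positive with the Y-linked covariate (0.19), the neural tube covariate (0.98) and without control 1 and control 3 (0.80). Uncx was under the threshold with arrays centred on their medians (-1.80) and without control 2. That is not read as a result, since only its control arrays carried it past the filter. Pax7 and Uncx were not tested with the filter at the 50th percentile, which removed them. Beyond the values given, the cause of these changes was not tested. Dim probe sets of Uncx and Pax7 near the unspiked level limit the size of their differences.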

Other observations

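Genes of cells in which Pax3 also acts, or which surround the members, were examined by the same fit. Of 10 tested neural crest and glia genes, 8 had positive differences, 0 passed and the median was 0.14, against 0.01 over all genes tested. Their summed intensity ran from 18258 to 18327 in Mest-KO and from 16296 to 17109 in control. Sox10, a crest and glial factor that the otic vesicle also makes, averaged 2652 ± 170.0 in Mest-KO and 1989 ± 116 in control (0.41 ± 0.08; limma, adjusted p = 0.106), and the neurotrophin receptor gene Ngfr (0.41 ± 0.11), the forkhead gene Foxd3 (0.41 ± 0.14) and Snai2 (0.12 ± 0.06) had groups that did not overlap either, where 14.5% of all genes tested had such groups, 9.32% with higher values in Mest-KO. These 4 had the smallest p in the list and read higher on all Mest-KO arrays, so none could be highest in control 1 and control 3. Tfap2a and Tfap2b of the same list were, like Pax3, highest in those arrays. Tfap2a read 1592 and 1824 in control 1 and control 3, and Tfap2b 899 and 1152.

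Of 12 periotic mesenchyme genes, 8 had negative differences with a median of -0.06, and 0 passed. Tbx15 (-0.36 ± 0.10), Pou3f4 (-0.76 ± 0.21), Prrx2 (-0.30 ± 0.11) and Foxc2 (-0.15 ± 0.09) had the smallest p. Of 14 otic vesicle genes, 9 had negative differences with a median of -0.07 and 0 passed, with Sox10 (above) at 0.41 ± 0.08, Otx1 at -0.79 ± 0.20, Gata3 at -0.62 ± 0.21 and Pax8 at -0.48 ± 0.24.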
